A study of Homo sapiens with 8 samples.

Results

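Expression of 53 mitotic regulators, condensin subunits and cytokinesis genes was examined in HaCaT keratinocytes under M5 stimulation. The members were listed by gene name for their role in mitosis, with kinesins and kinetochore genes left out. All 53 were found by Entrez gene identifier among the 17131 genes of the table, and all 53 were among the 12434 genes with enough counts to be tested. HaCaT is a spontaneously immortalised human keratinocyte line that cycles in culture. M5 is a cocktail of oncostatin M, TNF-α, IL-1α, IL-17A and IL-22 that is used to model psoriatic inflammation in keratinocytes. The methods describe each of the 5 cytokines at 10 ng/mL for 24 h, and OTS514, an inhibitor of the kinase TOPK at 10 nM for 12 h beforehand and then together with M5. RNA was sequenced from 8 cultures, all stimulated with M5, of which 4 carry the title M5_O5 and 4 the title M5. The titles and the treatment labels name opposite groups. By title the M5_O5 libraries would be those with OTS514, but their treatment label says that they were untreated, and it is the M5 libraries whose label gives a TOPK inhibitor. Groups are therefore named by title and every direction is given between titles, not between inhibitor and control. The labels do not say whether the 4 libraries of a group came from separate experiments, and p-values then measure the spread between these cultures only.

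Entry into mitosis is driven by CDK1 bound to cyclin B, which is held inactive until CDC25 phosphatases act on it and Aurora A and polo-like kinase 1 set off the switch. Condensin and topoisomerase II then compact and untangle the chromosomes, spindle proteins such as TPX2 and PRC1 organise the microtubules, the anaphase-promoting complex (APC/C) destroys securin and cyclin B to let the chromatids separate, and the RhoA pathway with anillin closes the contractile ring. Most of these genes are transcribed in G2 under B-MYB (MYBL2) and FOXM1, which act with the MuvB complex through a promoter element known as the CHR. In epidermis these genes mark the dividing basal and suprabasal keratinocytes, whose number is raised in psoriasis.

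Total counts per library lay between 16113015 and 16922693 in M5_O5 and between 13708055 and 16847599 in M5, where replicate 1 was the smallest. The keratinocyte label held in all libraries, with the 12 keratinocyte markers summing to 19800 to 23600 TPM (counts scaled for transcript length and library size) in M5_O5 and 22600 to 24600 TPM in M5. Of the other cell types the samples could hold, the fibroblast markers summed to at most 15.4 TPM, with 6 of 7 under 1 TPM in every library, the melanocyte markers to at most 1.46 TPM with 5 of 5 under 1, and the endothelial markers to 1.14 to 1.61 TPM in M5_O5 and 0.1 to 0.28 TPM in M5. The immune list summed to 109 to 125 TPM in M5_O5 and 123 to 140 TPM in M5, led by CD68, with 4 of 6 markers under 1 TPM and 1 of them at 0. The part of these small differences in the results was not tested. One library stood apart for the genes described here. M5 replicate 1 was the highest of the 4 M5 libraries in 48 of the 53 members, against 39.4% of all genes tested, and the results that it moves most are given with and without it. The library was set apart by its values in these same members. Leaving it out therefore widens most differences and tends to lower p-values by construction, so values without it are no separate support.

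The mitotic genes were higher in M5_O5 than in M5 as a group. All 53 had a log2 fold change above 0, against 51.8% of all genes tested, and the median over the members was 0.94, against 0.01 over all genes. By edgeR's quasi-likelihood test, 25 of the 53 were called higher, meaning an adjusted p-value under 0.05 and at least a 2-fold difference, where 2.87% of all genes tested were called higher. None was called lower, where 0.33% of all genes were, which follows from all 53 values lying above 0. A further 17 passed the adjusted p-value without reaching 2-fold, which makes 42 higher by the test alone, against 19.5% of all genes higher and 17.6% lower. The 11 members that did not pass were PIMREG, PLK4, PSRC1, CCNF, NCAPG2, SMC4, BORA, G2E3, CKAP2, CDC25B and ECT2. In 33 members all 4 M5_O5 libraries lay above all 4 M5 libraries, which held for 17.8% of all genes tested, and for these the exact two-sided permutation test gave 0.0286, the smallest p that 4 against 4 allow. Since RNA was taken from whole cultures, fewer cells in mitosis and less of these RNAs per cell cannot be told apart.

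Leaving out M5 replicate 1, which was set apart on these same values, raised the counts of higher members. Without it, 31 members were called higher, the 25 and 6 more (CDCA2, PIMREG, TACC3, CCNB2, LMNB1 and ASPM), against 3.7% of genes tested. By adjusted p alone 48 were higher, against 22.9%, and in 48 the M5_O5 libraries lay above M5 replicates 2 to 4, against 24.7%. The median log2 fold change was then 1.22. Leaving out M5 replicate 3 instead lowered the number called to 13. The 12 lost calls were ARHGAP11A, CCNB1, CDC25C, FAM83D, FOXM1, GTSE1, HMMR, NEK2, NUSAP1, TOP2A, TROAP and UBE2C, which then had log2 fold changes of 0.89 to 0.99 and still passed the adjusted p-value. Without M5 replicate 2 or M5 replicate 4, 18 members were called, and the 7 calls lost in each case were among these 12. The number past the adjusted p-value stayed between 38 and 48 whichever library was left out.

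**Figure D1:**
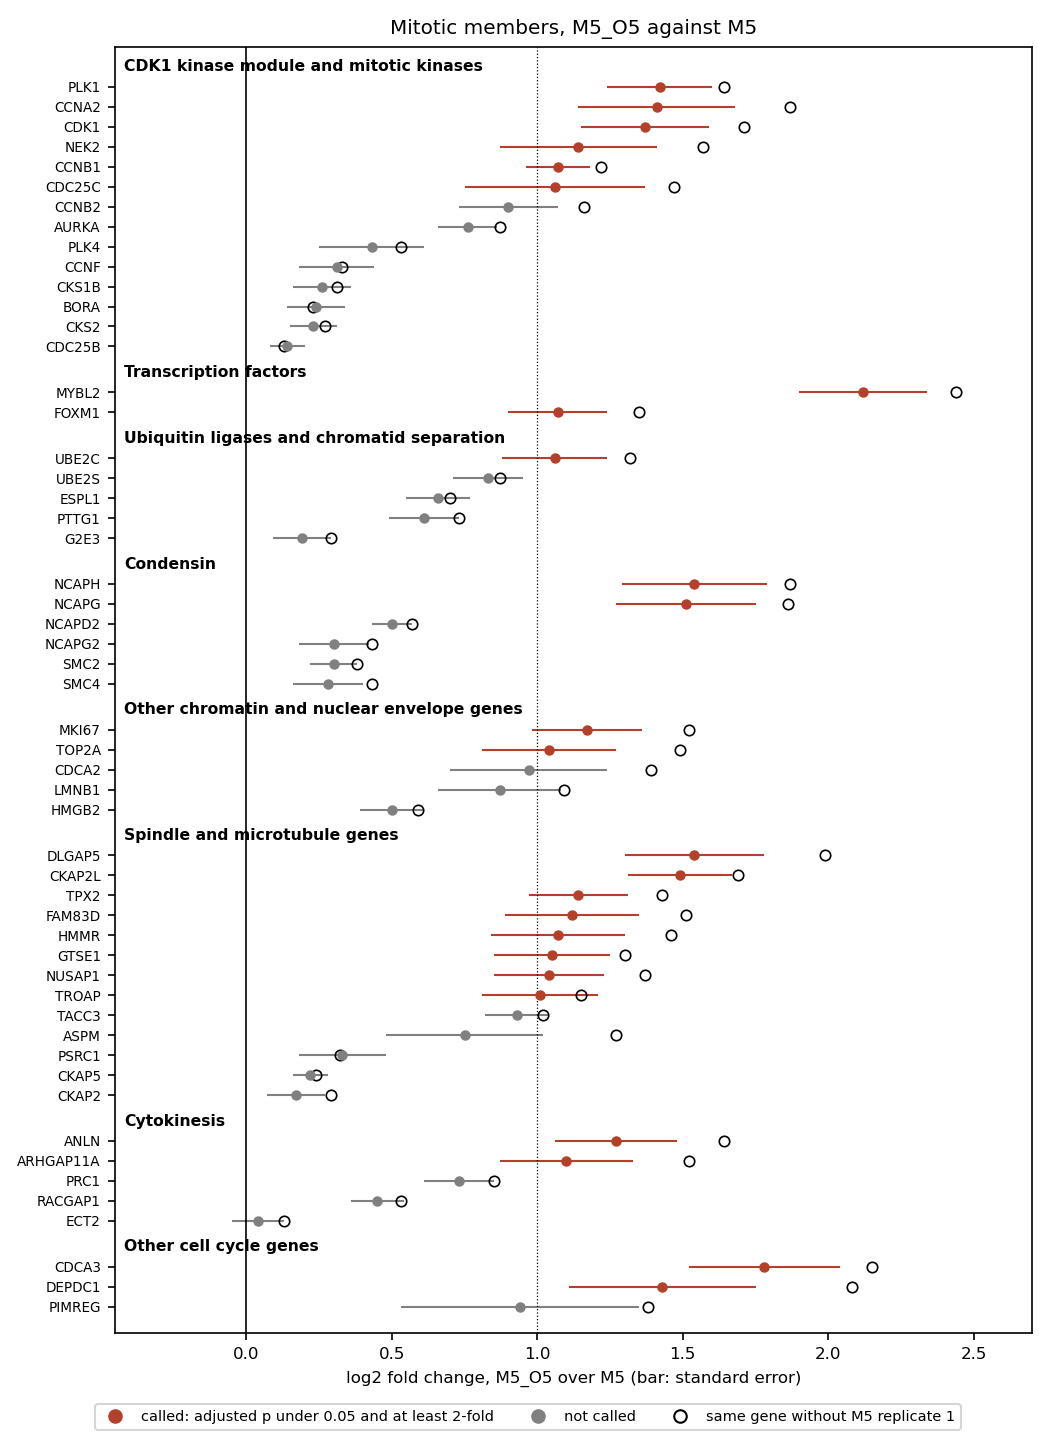
Log2 fold change of each of the 53 members, M5_O5 over M5, grouped by role. Filled points with bars are the estimate and its standard error from all 8 libraries (red where called), hollow circles the estimate without M5 replicate 1, and the dotted line marks 2-fold. All filled points lie above 0, from ECT2 at 0.04 to MYBL2 at 2.12, and most hollow circles lie to the right of their filled point.

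Promoter sequence was described because most genes of this kind are transcribed through the CHR, as given above. The members were listed for their role in mitosis, so their motif shares say nothing of the difference between titles. The 250 bases before the start were available from RefSeq (GRCh38.p14) for 43 of the 53 members and for 10208 of the genes tested, and were searched on both strands for the CHR (TTTGAA or TTTAAA), the CCAAT box (CCAAT) and an E2F element (TTTCGCGC or TTTGGCGC), with overlapping matches counted. A CHR was present in 28 of the 43 members (65.1%), against 19.4% of all genes tested with a sequence, a CCAAT box in 33 (76.7%) against 41.9%, and both in 25 (58.1%) against 7.75%. An E2F match was present in 2 (4.65%) against 2.13%. The members had 1.33 windows per gene and all genes 1.46. Among the 20 called members with a sequence, 14 held a CHR and 16 a CCAAT box, and among the other 23 members 14 held a CHR and 17 a CCAAT box. The windows printed here are those of the members named by size of change, with matched letters in capitals on the strand of the gene, where ATTGG is a CCAAT box and TTCAAA a CHR read from the other strand. PLK1, ANLN and MKI67 had the largest fold changes among members with at least 100 counts on average and a sequence in the table. PLK1 (chr16:23678639-23678888, plus strand), ANLN (chr7:36389612-36389861, plus strand) and MKI67 (chr10:128126424-128126673, minus strand) each hold a TTTGAA that begins 20 to 29 bases before the start, and in MKI67 it overlaps an inverted CCAAT box.
PLK1: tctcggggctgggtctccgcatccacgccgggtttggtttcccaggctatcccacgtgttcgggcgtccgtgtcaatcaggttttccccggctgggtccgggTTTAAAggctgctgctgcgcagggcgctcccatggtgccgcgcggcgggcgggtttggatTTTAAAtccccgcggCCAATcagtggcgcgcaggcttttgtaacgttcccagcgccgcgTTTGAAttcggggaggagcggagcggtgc
ANLN: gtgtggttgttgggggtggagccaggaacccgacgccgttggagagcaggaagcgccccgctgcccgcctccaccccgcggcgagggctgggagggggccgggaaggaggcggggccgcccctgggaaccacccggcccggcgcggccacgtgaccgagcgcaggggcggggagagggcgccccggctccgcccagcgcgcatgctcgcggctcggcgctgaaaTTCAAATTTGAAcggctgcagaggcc
MKI67: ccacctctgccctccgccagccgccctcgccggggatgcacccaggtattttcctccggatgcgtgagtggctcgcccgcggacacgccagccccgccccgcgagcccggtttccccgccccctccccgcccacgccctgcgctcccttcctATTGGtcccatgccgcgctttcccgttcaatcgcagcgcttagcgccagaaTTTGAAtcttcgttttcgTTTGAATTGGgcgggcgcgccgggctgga
The window of CCNB2 (chr15:59104896-59105145, plus strand), chosen after its sequence was seen, holds 4 CCAAT boxes and a TTTGAA that begins 29 bases before the start.
CCNB2: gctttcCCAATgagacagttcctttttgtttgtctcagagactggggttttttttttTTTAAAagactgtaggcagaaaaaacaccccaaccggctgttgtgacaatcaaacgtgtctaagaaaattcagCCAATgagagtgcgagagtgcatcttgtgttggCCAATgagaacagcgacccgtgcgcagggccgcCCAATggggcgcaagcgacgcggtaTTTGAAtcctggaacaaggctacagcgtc
The members with the smallest fold changes, ECT2 and CDC25B, are shown for contrast. The ECT2 window (chr3:172750476-172750725, plus strand, 1 of 2) holds a CHR that begins 115 bases before the start and 2 CCAAT boxes, and the CDC25B window (chr20:3786701-3786950, plus strand, 1 of 4) holds none of the motifs. The other ECT2 window (chr3:172750752-172751001) holds 2 more TTTGAA matches. None of the 4 CDC25B windows held a CHR, and 2 of them (chr20:3795539-3795788 and chr20:3796060-3796309) held a CCAAT box each.
ECT2: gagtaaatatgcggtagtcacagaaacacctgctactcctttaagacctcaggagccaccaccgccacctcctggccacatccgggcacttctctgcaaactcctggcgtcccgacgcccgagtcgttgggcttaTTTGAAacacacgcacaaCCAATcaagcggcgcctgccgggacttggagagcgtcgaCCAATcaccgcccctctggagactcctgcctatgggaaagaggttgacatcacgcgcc
CDC25B: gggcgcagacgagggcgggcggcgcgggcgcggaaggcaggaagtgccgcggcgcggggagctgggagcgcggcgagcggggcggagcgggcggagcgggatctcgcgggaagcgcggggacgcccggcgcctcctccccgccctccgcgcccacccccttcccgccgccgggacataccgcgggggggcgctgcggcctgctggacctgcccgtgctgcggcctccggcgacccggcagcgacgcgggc
These matches describe letters only and no binding was measured.

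In the CDK1 kinase module, 6 of 14 members were called higher and 10 passed the adjusted p-value, with a median log2 fold change of 0.83. The kinase itself and its cyclins differed clearly. CDK1, the catalytic subunit, stood at 8.95, 6.84, 6.46 and 7.43 CPM (counts scaled to library size by edgeR) in M5_O5 replicates 1 to 4 and at 4.89, 1.96, 2.57 and 2.24 CPM in M5. The groups did not overlap, and M5 replicate 1 lay well above the other three M5 libraries. Its log2 fold change was 1.37 (SE 0.22, adjusted p = 0.00031, edgeR) and 1.71 without that library. CCNB1, the cyclin that carries CDK1 into mitosis, measured 23, 22.6, 23.9 and 22 CPM in M5_O5 against 14.2, 10.5, 9.15 and 9.84 CPM in M5. Its M5_O5 libraries spanned the narrowest range of the module's called members in relative terms, and the log2 fold change was 1.07 (SE 0.11, adjusted p = 1.03e-05). CCNA2, the S and G2 cyclin, had a log2 fold change of 1.41, and CCNB2, which partners CDK1 at the Golgi, 0.90, past the adjusted p-value but under 2-fold until M5 replicate 1 was left out (1.16).

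The other mitotic kinases and BORA differed in the size of their change. PLK1, which phosphorylates CDC25 and WEE1, was at 11.1, 9.71, 12.3 and 9.75 CPM in M5_O5 and at 5.84, 3.98, 2.63 and 3.68 CPM in M5. Every M5_O5 library was above every M5 library, and the log2 fold change was 1.42 (SE 0.18, adjusted p = 3.94e-05). AURKA, the kinase of the centrosome and spindle poles, was at 25.2, 23, 22.9 and 23.5 CPM in M5_O5 and at 17.2, 13.2, 12.2 and 13.3 CPM in M5. The M5_O5 libraries were tightly grouped and above all M5 libraries, but the difference was smaller, at 0.76 (SE 0.10, adjusted p = 5.11e-05), and stayed under 2-fold without M5 replicate 1 (0.87). NEK2, a centrosome-splitting kinase, was called at 1.14. BORA, the activator of Aurora A, had a log2 fold change of 0.24 and PLK4, which duplicates centrioles, 0.43, and neither passed.

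The CDC25 phosphatases differed from each other in both level and change. CDC25B, the starter phosphatase, was the most abundant member at a mean of 370 TPM. Its libraries measured 598, 692, 690 and 616 CPM in M5_O5 and 581, 626, 571 and 585 CPM in M5. The groups overlapped, since M5 replicate 2 lay above M5_O5 replicates 1 and 4, and the log2 fold change of 0.14 did not pass (SE 0.06, adjusted p = 0.104). CDC25C, at a mean of 1.20 TPM, was called at 1.06 (SE 0.31, adjusted p = 0.0152) with groups that overlapped, and it lost its pass of the adjusted p-value without M5 replicate 2 (0.0512) or M5 replicate 4 (0.0509). The CDK-binding subunits CKS1B and CKS2, close paralogs that dock CDK1 onto its substrates, had log2 fold changes of 0.26 and 0.23 with adjusted p-values of 0.0442 and 0.0354. Both missed the threshold in several settings, among them DESeq2 at 0.0566 and 0.0508. CCNF, the F-box cyclin, did not pass at 0.31.

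Both transcription factors of the G2 programme were called higher. MYBL2 had the largest fold change of all 53 members. It measured 9.71, 7.29, 10.9 and 8.74 CPM in M5_O5 and 3.5, 2.16, 1.25 and 1.62 CPM in M5. The lowest M5_O5 library was above the highest M5 library, and the log2 fold change was 2.12 (SE 0.22, adjusted p = 1.15e-05), a 4.35-fold difference, and 2.44 without M5 replicate 1. FOXM1, the forkhead factor that drives the late G2 genes, measured 15, 14.6, 16.4 and 14.3 CPM in M5_O5 and 11.2, 6.4, 5.66 and 5.67 CPM in M5. M5 replicate 1 stood apart from the other M5 libraries and still below all of M5_O5. The log2 fold change was 1.07 (SE 0.17, adjusted p = 0.000288) and 1.35 without that library.

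Among the genes of ubiquitin transfer and chromatid separation, 1 of 5 was called and 4 passed the adjusted p-value, with a median of 0.66. UBE2C, the enzyme that starts ubiquitin chains for the APC/C, was at 8.08, 7.81, 8.59 and 7.25 CPM in M5_O5 and at 5.84, 3, 2.9 and 3.61 CPM in M5. The groups did not overlap and the log2 fold change was 1.06 (SE 0.18, adjusted p = 0.000448). UBE2S, which elongates those chains, had a log2 fold change of 0.83 and ESPL1, the protease separase, 0.66. PTTG1, the securin that holds separase in check, was the most abundant of the 5 at 44.9 TPM on average. It stood at 14, 12.2, 13.7 and 15.2 CPM in M5_O5 and at 11.3, 8.69, 8.16 and 8.1 CPM in M5, with no overlap, and its log2 fold change was 0.61 (SE 0.12, adjusted p = 0.00113). G2E3, a ubiquitin ligase of the nucleus, measured 20.5, 18.9, 17.6 and 21.7 CPM in M5_O5 and 21.1, 15.2, 16.5 and 16.4 CPM in M5. M5 replicate 1 was above 3 of the 4 M5_O5 libraries, and the log2 fold change of 0.19 did not pass (SE 0.10, adjusted p = 0.169) until that library was left out (0.29, adjusted p = 0.0144).

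The condensin subunits ranged widely, with 2 of 6 called and 4 past the adjusted p-value. NCAPH and NCAPG, the kleisin and a HEAT-repeat subunit of condensin I, were called at 1.54 and 1.51, while the ATPase core SMC2 and SMC4, which both condensins share, stayed near 0.3. NCAPH measured 3.66, 3.5, 4.68 and 4.28 CPM in M5_O5 and 2.34, 0.718, 1.05 and 1.5 CPM in M5. The groups did not overlap (SE 0.25, adjusted p = 0.000337). SMC2 was at 60.9, 54.3, 53.5 and 58.7 CPM in M5_O5 and at 54.5, 43.6, 43.1 and 44.2 CPM in M5. Only M5 replicate 1 reached into the M5_O5 range, and the log2 fold change of 0.30 passed (SE 0.08, adjusted p = 0.00911). SMC4 was at 56.7, 48.4, 44.4 and 54.8 CPM in M5_O5 and at 54.9, 35.7, 37.8 and 40.2 CPM in M5. With M5 replicate 1 above 3 of the M5_O5 libraries, the log2 fold change of 0.28 did not pass (SE 0.12, adjusted p = 0.0738), and without that library it was 0.43 (adjusted p = 0.000733). The HEAT-repeat subunit NCAPD2 of condensin I had a log2 fold change of 0.50, and NCAPG2 of condensin II 0.30, the latter not passing with all 8 libraries. In mean TPM, which allows comparison between genes, NCAPH and NCAPG stood at 1.41 and 1.48 and SMC2 and SMC4 at 18 and 15.4. Among these, the subunits with the larger fold changes were also the less abundant. NCAPG2 and NCAPD2 did not keep this order, with 0.30 at 5.59 TPM and 0.50 at 14.2 TPM. The difference between subunits was not tested.

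All 5 other chromatin and nuclear envelope genes passed the adjusted p-value and 2 were called. MKI67, the surface protein of mitotic chromosomes known as Ki-67 and the usual marker of cycling cells in skin sections, was at 54.6, 56.2, 59.8 and 59.5 CPM in M5_O5 and at 43.1, 22, 19.9 and 18.3 CPM in M5. The M5_O5 libraries were close together, M5 replicates 2 to 4 were close together far below them, and M5 replicate 1 lay between. The log2 fold change was 1.17 (SE 0.19, adjusted p = 0.000363), and without M5 replicate 1 it was 1.52 (SE 0.07, adjusted p = 2.07e-09). TOP2A, the topoisomerase that untangles sister chromatids, was at 78.4, 66.7, 67.9 and 78.9 CPM in M5_O5 and at 65.1, 27.3, 26.1 and 24.3 CPM in M5. Here M5 replicate 1 came within the reach of the lowest M5_O5 library without crossing it, and the log2 fold change went from 1.04 (SE 0.23, adjusted p = 0.00319) to 1.49 (SE 0.08, adjusted p = 3.7e-09) when it was left out. HMGB2, a DNA-bending protein of dividing cells, was at 11.8, 13.7, 15.1 and 15.3 CPM in M5_O5 and at 11.8, 9.67, 9.02 and 9.16 CPM in M5. M5 replicate 1 and M5_O5 replicate 1 were level, and the log2 fold change of 0.50 passed (SE 0.11, adjusted p = 0.00352). LMNB1, the lamin of proliferating nuclei, and CDCA2, a phosphatase-targeting subunit on anaphase chromatin, passed at 0.87 and 0.97 and crossed 2-fold without M5 replicate 1, at 1.09 and 1.39.

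Spindle and microtubule genes held the largest number of calls, 8 of 13, with 11 past the adjusted p-value and a median of 1.04. DLGAP5, a kinetochore-fibre stabiliser also called HURP, led them. It was at 8.78, 8.62, 8.12 and 8.38 CPM in M5_O5 and at 5.47, 2.22, 1.71 and 2.43 CPM in M5. The M5_O5 libraries were nearly equal and all above M5, with a log2 fold change of 1.54 (SE 0.24, adjusted p = 0.000228). CKAP2L (radmis) followed at 1.49. TPX2, which activates Aurora A on spindle microtubules, was called at 1.14, FAM83D, which brings casein kinase 1 to the spindle, at 1.12, HMMR, a hyaluronan receptor that also binds the spindle, at 1.07, GTSE1, an inhibitor of microtubule depolymerisation, at 1.05, NUSAP1, a microtubule bundler, at 1.04 and TROAP (tastin) at 1.01. TROAP lay closest to the 2-fold line and was lost from the calls under DESeq2, which left 24 called members. TACC3, a clathrin partner that bridges spindle fibres, passed at 0.93.

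The remaining spindle genes changed less. ASPM, which organises spindle poles, was at a log2 fold change of 0.75 (SE 0.27, adjusted p = 0.0398), with M5 replicate 1 at 17.2 CPM above all 4 M5_O5 libraries. Without that library it was 1.27 (adjusted p = 6.47e-07). With M5 replicate 1 kept, leaving out any other single library left it short of the threshold, at adjusted p-values of 0.0561 to 0.126. CKAP2, a microtubule-associated protein and the most abundant spindle member at 40.7 TPM, measured 86.2, 79.5, 72.2 and 83.8 CPM in M5_O5 and 88.3, 63.1, 70.9 and 63.9 CPM in M5. M5 replicate 1 was the highest of all 8 libraries, and the log2 fold change of 0.17 did not pass (SE 0.10, adjusted p = 0.174), while without it the value was 0.29 (adjusted p = 0.00365). CKAP5, the microtubule polymerase chTOG, passed at 0.22 and PSRC1 did not at 0.33.

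Of the cytokinesis genes, 2 of 5 were called and 4 passed the adjusted p-value. ANLN, the scaffold of the contractile ring, was at 29.2, 20.9, 24.9 and 27 CPM in M5_O5 and at 18.4, 9.01, 8.29 and 7.16 CPM in M5. No M5 library reached the M5_O5 range, although M5 replicate 1 stood far above the other M5 libraries, and the log2 fold change was 1.27 (SE 0.21, adjusted p = 0.000446). ECT2, the exchange factor that activates RhoA at the midzone, showed the smallest difference of all members. It was at 88.8, 78.2, 72.6 and 82.2 CPM in M5_O5 and at 94.2, 70.8, 73.4 and 75.8 CPM in M5. The groups overlapped, M5 replicate 1 was the highest of the 8, and the log2 fold change was 0.04 (SE 0.09, adjusted p = 0.771). Its partners in the midzone lay between these extremes, with PRC1, the microtubule bundler, at 0.73 (SE 0.12) and RACGAP1, the subunit of centralspindlin that recruits ECT2, at 0.45 (SE 0.09), both past the adjusted p-value.

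ARHGAP11A, a RhoA GTPase-activating protein, was called at 1.10 (SE 0.23, adjusted p = 0.00194), but its value is uncertain. ARHGAP11B is a near-identical partial copy, and how shared reads were divided was not tested. Of its 8 listed transcripts 5 are further placements, and leaving such rows out moved the log2 fold change to 2.33. The summed counts of both genes gave 1.05 (SE 0.21, adjusted p = 0.00172).

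The other 3 cell cycle genes were weakly expressed. CDCA3, a trigger of mitotic entry that works through ubiquitin ligase, was at 2.38, 2.3, 2.49 and 2.5 CPM in M5_O5 and at 1.24, 0.653, 0.461 and 0.498 CPM in M5. The M5_O5 libraries were almost level and each lay above M5, with a log2 fold change of 1.78 (SE 0.26, adjusted p = 0.000133), second only to MYBL2 among the members. DEPDC1, a transcriptional co-repressor of dividing cells, was called at 1.43 with groups that overlapped, and stood at 2.08 without M5 replicate 1. PIMREG, a mitotic partner of the clathrin adaptor CALM, was the least abundant member at 0.756 TPM and measured 1.63, 0.919, 0.593 and 0.713 CPM in M5_O5 and 0.949, 0.261, 0.461 and 0.374 CPM in M5. It had as few as 4 counts in a library, the groups overlapped, and the log2 fold change of 0.94 did not pass (SE 0.41, adjusted p = 0.0884).

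**Figure D2:**
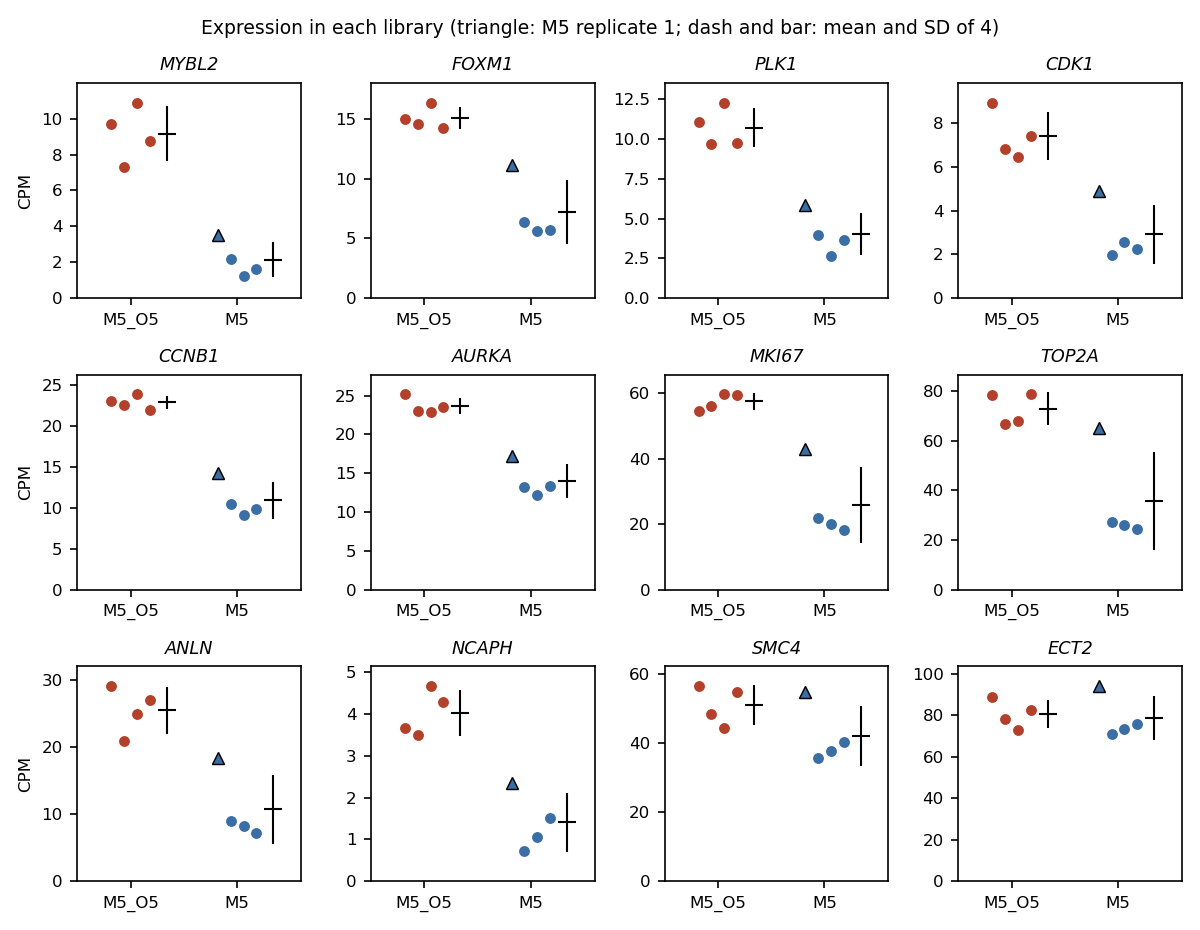
CPM of 12 members in each of the 8 libraries, with M5_O5 in red and M5 in blue. Triangles are M5 replicate 1, and the dash and bar beside each group are the mean and SD of its 4 libraries. For 10 genes no M5 library reaches the M5_O5 range, whereas for SMC4 and ECT2 the M5 replicate 1 triangle lies within or above it.

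M5 replicate 1 took an intermediate place in all the called members and in most of the others. On a log2 scale on which 0% is the mean of M5 replicates 2 to 4 and 100% the mean of M5_O5, it lay at a median of 68.7% over the 25 called members, from 41.8% (CKAP2L) to 89.7% (CDC25C). The other M5 libraries, each set against the remaining ones with replicate 1 left out, had medians of 12.5%, -6.79% and 0.00754%. Over the 323 other called genes with counts in every library, M5 replicate 1 lay at a median of 30.3%. The calls themselves used this library. Among members not called, it lay below 0% in PSRC1, BORA and CDC25B (-23.4%, the lowest). It lay above 100% in PIMREG, NCAPG2, ASPM, SMC4, G2E3, CKAP2 and ECT2 (277%, the highest). M5 replicate 1 was at or above the lowest M5_O5 library in 17 members, among them ASPM, SMC4, CKAP2 and ECT2. The share of all genes tested in which it was so was not computed, so this count has no background beside it. Averaged over the 53 members, log2 CPM was 3.64 to 3.77 in the M5_O5 libraries, 3.37 in M5 replicate 1 and 2.55 to 2.67 in the other M5 libraries, and M5 replicate 1 was above the other M5 libraries in each of the 8 roles. M5 replicate 1 also had the fewest counts of the 8 libraries, and its part in the result was not tested beyond leaving it out. Within M5_O5 no library stood apart in this way. Replicate 1 was the highest of the 4 in 21 members, replicate 3 in 16, replicate 4 in 12 and replicate 2 in 4. Over all genes tested these shares were 31.4%, 26.8%, 22.3% and 19.4%, in the same order.

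**Figure D3:**
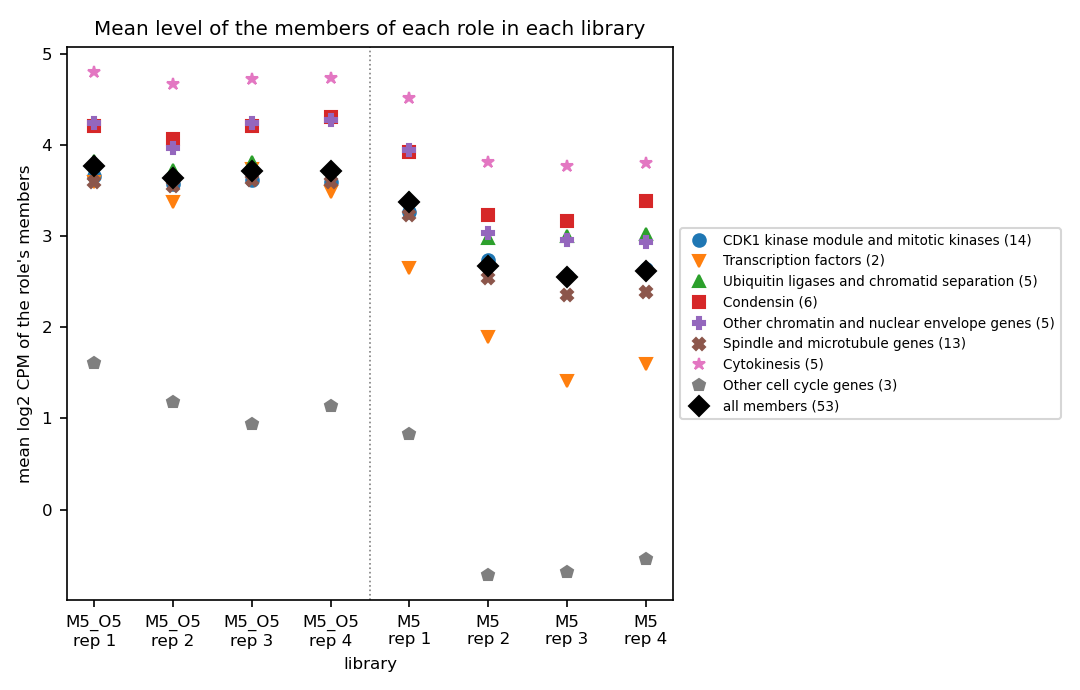
Mean log2 CPM of the members of each role in each library, with the number of members in brackets and all 53 members as black diamonds. All 9 series are lower in M5 replicates 2 to 4 than in M5_O5, and M5 replicate 1 lies between the rest of its group and M5_O5.

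**Figure D4:**
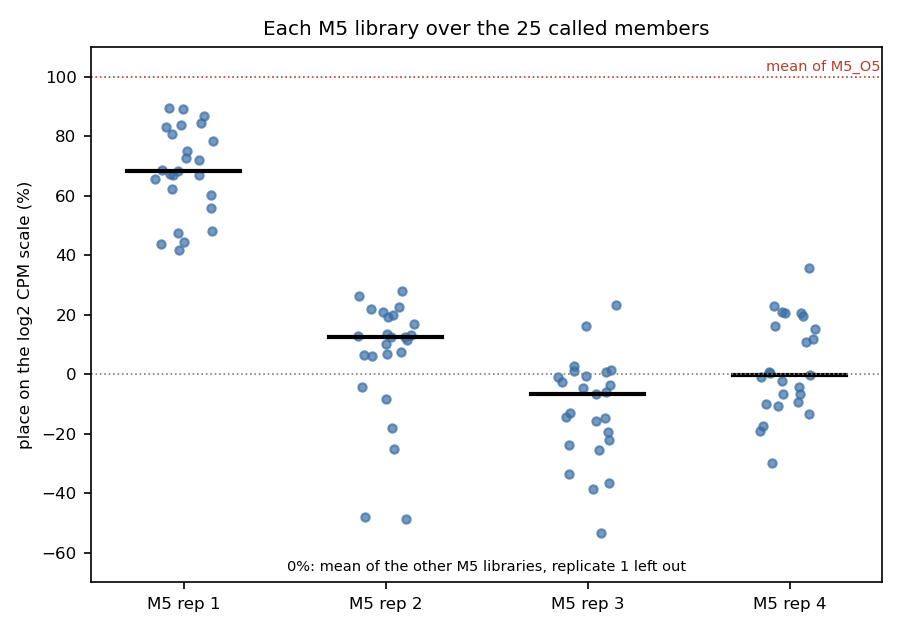
Place of each M5 library on the log2 CPM scale for the 25 called members, where 0% is the mean of the other M5 libraries with replicate 1 left out and 100% the mean of M5_O5. Points are members and lines are medians, at 68.7% for M5 replicate 1 and between -6.79% and 12.5% for the others.

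Abundant members differed less than scarce ones. Of the 33 members under 10 TPM on average, 21 were called (63.6%) and the median log2 fold change was 1.07, while of the 20 members at 10 TPM or more 4 were called (20%) with a median of 0.50. The 4 were TPX2, CCNB1, TOP2A and UBE2C. The same tendency was seen over all genes tested, where 6.2% of the 5049 genes under 10 TPM and 0.596% of the 7385 genes at or above it were called higher, with medians of 0.15 and -0.04. When a trend with expression level was removed between libraries by cyclic loess, 15 members were still called and 24 of the 25 called members still passed the adjusted p-value, with a median over the members of 0.76. The members most abundant per length were CDC25B (370 TPM), CKS2 (134 TPM), CKS1B (67 TPM), PTTG1 (44.9 TPM) and CKAP2 (40.7 TPM), and none of these 5 was called.

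**Figure D5:**
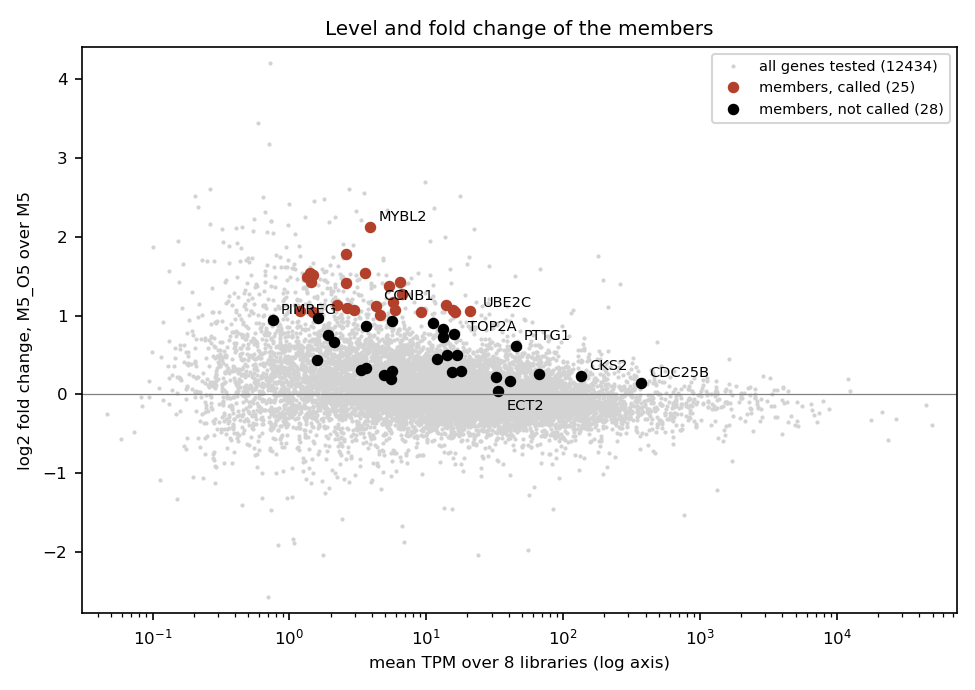
Log2 fold change, M5_O5 over M5, against the mean TPM of 8 libraries on a log axis, for all 12434 genes tested (grey), the 25 called members (red) and the 28 other members (black). The called members lie above most of the grey points, and the members at high TPM lie nearer to 0, with CDC25B at 370 TPM the most abundant.

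Genes that work with the members in mitosis were not uniformly different. They are described by counts and medians, and genes named for an adjusted p alone were chosen after their values were seen. The shares of genes past the adjusted p-value in each list stand against 19.5% higher and 17.6% lower over all genes tested. The counts called at 2-fold stand against 2.87% called higher and 0.33% called lower. The list of spindle assembly and chromosomal passenger genes, which also holds centromere and kinetochore genes and kinesins, had the most calls. Of 16 tested, 12 were called higher and 14 passed the adjusted p-value, with a median log2 fold change of 1.19, from INCENP at 0.09 to NDC80, a kinetochore subunit, at 1.55. Without M5 replicate 1, 15 of them were called, the median was 1.61 and NDC80 stood at 2.23. The called genes included BIRC5 (survivin, 1.53), AURKB (1.08), BUB1 (1.16), BUB1B (1.3), TTK (1.45) and MAD2L1 (1.49). The cohesin list, by contrast, had a median of -0.02, with 3 of 15 called higher, namely ESCO2 (1.61, or 2.24 without M5 replicate 1), which acetylates cohesin in S phase, CDCA5 (sororin, 1.11) and SGO1 (shugoshin, 1.27). No core cohesin ring subunit was called, and STAG1 was lower at -0.22 by adjusted p alone.

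Of 17 APC/C genes 1 was called, the co-activator CDC20 at 1.02, and that call was lost without M5_O5 replicate 3 or without any one of M5 replicates 2 to 4. The list counted 2 calls without M5_O5 replicate 2 or M5 replicate 1. By adjusted p alone 4 genes were higher and 1 lower, and the list's median was 0.15, with FBXO5 (EMI1), an inhibitor of the APC/C, at 0.97 and FZR1, the G1 activator, at -0.24, both past the adjusted p-value. Among the 11 DREAM and MuvB subunits, the complex that binds CHR promoters with MYBL2 or with the p130 repressor RBL2, none was called at 2-fold, 2 were higher (LIN52 at 0.41 and RBL1 at 0.36) and 3 lower (RBBP4 at -0.26, E2F4 at -0.23 and RBL2 at -0.21) by adjusted p alone, with a median of 0.04. The list of 13 brakes and opposing enzymes of CDK1 also holds CDC25A, MASTL, ENSA and ARPP19, which act in favour of CDK1. In this list PKMYT1, an inhibitory kinase of CDK1, was called at 1.89 (SE 0.20, adjusted p = 1.01e-05). By adjusted p alone 2 of the 13 were higher, PKMYT1 and CHEK1 (0.43), and 3 were lower, CDKN1A, which encodes the CDK inhibitor p21, at -0.42 (SE 0.06, adjusted p = 9.39e-05) and the phosphatase subunits PPP1CA at -0.27 and PPP2R2D at -0.21. The list's median was 0.09.

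Of the 21 genes of the abscission and contractile ring list, CEP55, the midbody protein that recruits the abscission machinery, was called higher at 1.3, 4 in all were higher and 8 lower by adjusted p alone, and the median was -0.12. RHOA itself was lower at -0.28, MYH9, the main non-muscle myosin, at -0.22 and CHMP2A, the lowest of the list, at -0.38. MYH10, another non-muscle myosin, was higher at 0.51 by adjusted p alone. CIT (citron kinase) was higher at 0.86 and crossed 2-fold without M5 replicate 1, at 1.12, which made 2 calls in the list. Of the condensin II subunits outside the members, NCAPD3 was higher at 0.86 without reaching 2-fold and NCAPH2 was at -0.08. No gene of the 7 lists was called lower, where only 0.33% of all genes tested were.

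PBK encodes TOPK, the kinase that OTS514 inhibits, which is itself active in mitosis. It stood at 3.6, 2.93, 2.25 and 3.15 CPM in M5_O5 and at 2.63, 0.588, 0.987 and 0.685 CPM in M5. M5 replicate 1 lay within the M5_O5 range and the other M5 libraries below it, with a log2 fold change of 1.32 (SE 0.34, adjusted p = 0.00738) and 1.98 without M5 replicate 1. This level was not used to assign a treatment to a title.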

How the data were processed

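RNA of 8 HaCaT cultures was sequenced by the authors, who filtered the reads and, by their methods, mapped them with HISAT2 2.1.0 and quantified them with StringTie 2.1.5. Their processing notes also list Bowtie2 2.2.5 and RSEM 1.2.8 and a mouse build, which cannot be the build of a table of human RefSeq transcripts, so the build used is not given in the sources used here. The table deposited by the authors holds an estimated count for each of 86639 transcripts in each library, not normalized. The deposited TPM values are scaled by the authors for transcript length and then to a common sum per library. The deposited FPKM values are scaled by the authors for transcript length and library size and were not used. The authors' own group comparisons were not used. Every column was assigned to a library, with 0 left over.

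Counts were summed per Entrez gene and rounded (53.8% of the values were fractional), and 17072 of 17131 identifiers were matched to a symbol in the RefSeq gene table of GRCh38.p14. Genes were filtered with filterByExpr, scaled by TMM (factors 0.938 to 1.05) and compared by edgeR 4.0.16 (R 4.3.3) in its quasi-likelihood test, with p-values adjusted by Benjamini-Hochberg over all 12434 genes. The thresholds were an adjusted p of 0.05 and 2-fold, as in the study's methods except for the adjustment. The script was tested on simulated data. Replicates differed by more than sampling noise (chi-square per gene 2.03 to 16.57), so each library was counted.

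The members and the lists were chosen with earlier results of these data known, so no list was tested. Library values are given for 22 members, by rule the most abundant member and those with the largest and smallest change in each role, with CCNB1, CDK1, PLK1, AURKA, TOP2A, MKI67 and FOXM1. Promoters are those of the 3 largest and 2 smallest changes among members with at least 100 counts on average and a RefSeq window, with CCNB2 added after its sequence was seen. The replicate numbers are not stated to pair the cultures. Over genes, deviations of same-numbered libraries from their group means had correlations of 0.21, 0.10, 0.00 and 0.01, not all above 0.1, so the numbers were not taken as pairs. Alternatives were DESeq2 1.42.0, limma 3.58.1 on log2(TPM + 1), on log2(TPM + 0.1) and after cyclic loess, other scalings and filters, further placements left out, unadjusted p, a block for replicate number, no fold threshold, and leaving out 1 library at a time.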

Additional observations from a re-analysis of the deposited data

Results flagged for a closer look

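In 5 of the 44 groups of 4 libraries checked (22 members in both titles), 1 library lay far from the other 3, by the ratio of its gap to the group's range (Dixon's test). Chance gives about 1 in 20 groups, or 2.2 of 44, and all 5 were M5 replicate 1, which the members share, so the 5 are not independent. ANLN stood at 18.4 CPM in that library against 7.16 to 9.01 in the other M5 libraries. MKI67 stood at 43.1 CPM against 18.3 to 22 CPM, and TOP2A at 65.1 CPM against 24.3 to 27.3 CPM. FOXM1 was at 11.2 CPM against 5.66 to 6.4 CPM. SMC2 was at 54.5 CPM against 43.1 to 44.2 CPM. M5 replicate 1 was also the smallest library, at 13708055 counts, and the part of its size in these values was not tested.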

How the results depend on the processing

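All 53 members had a log2 fold change above 0 in every alternative except ECT2, whose value was -0.01 without M5_O5 replicate 1 and without M5 replicate 2, and ranged from -0.01 to 0.13 over the libraries left out. Of the 42 members past the adjusted p-value, 38 passed in all 19 alternative fits that tested them, and 9 of the 25 called members were called in all of them. The number called was 24 with DESeq2 or RLE factors, 26 with upper-quartile factors, 28 with library size alone (which moved the median of all genes to 0.13), 15 with cyclic loess, 15 with limma on log2(TPM + 1), 28 with log2(TPM + 0.1), and 42 with no fold threshold. Leaving out 1 library gave 13 (without M5 replicate 3) to 31 (without M5 replicate 1), and the median over the members was 0.84 to 1.22. With at least 10 counts in every library 50 members were tested and 23 called.

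The cohesin list had 1 call with cyclic loess or the filter of 10 counts and 0 with log2(TPM + 1). The APC/C list had 2 with upper-quartile factors, library size or log2(TPM + 0.1), 0 with cyclic loess, and 0 to 2 with a library left out. The abscission list had 1 to 2 with a library left out, and the spindle assembly list had 7 with log2(TPM + 1). The causes were not tested. A pseudocount lowers the fold of scarce genes by arithmetic, but the fits on TPM also changed the model and the scaling.

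With the replicate block 25 members were called and 46 passed the adjusted p-value, with a median of 0.93, and no call was lost. Not every library correlated best with its own number. Depth limits the scarcest members, of which 3 had under 10 counts in a library.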
